A study of Mus musculus with 8 samples.

Results

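The CXC chemokines of macrophages in the injured mouse retina were described from 8 sequencing libraries, 4 of infiltrating macrophages and 4 of microglia, which settle in the retina during development. The 8 genes were chosen by symbol: Cxcl1, Cxcl2, Cxcl9, Cxcl10, Cxcl13, Cxcl14, Cxcl16 and Pf4, out of 22558 gene symbols listed. Every library came from injured retina of Msi1-CreERT2/+; R26R-DTA/+ animals (C57BL/6; 129 mixed), aged roughly 5 months and sampled at day 7, so the labels give macrophages and microglia the same genotype. In such mice an inducible Cre recombinase driven from Msi1 switches on diphtheria toxin A, which kills the cells that make it. Macrophage libraries carry the numbers 5 to 8 and microglial libraries 1 to 4. The labels title the macrophage libraries GFP without saying what it marks, and give neither the way cells were separated nor whether animals were pooled or shared. The p-values therefore describe the spread among 4 libraries a population, and that spread may be technical. No uninjured retina was analysed here.

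Chemokines are small secreted proteins that guide leukocytes along gradients through G protein-coupled receptors, and in the CXC family a single residue separates the pair of cysteines nearest the amino terminus. Cxcl1 and Cxcl2 bind Cxcr2 and draw neutrophils, and their genes are classic targets of the factor NF-kB. Cxcl9 and Cxcl10 bind Cxcr3 on activated T and NK cells and are induced by interferons, Cxcl10 by type I interferon and NF-kB as well. Pf4 (Cxcl4) is known from platelet granules and is also made by macrophages, Cxcl13 binds Cxcr5 and draws B cells, Cxcl14 is a constitutive chemokine of epithelia and brain, and Cxcl16 is a membrane-anchored ligand of Cxcr6 and a scavenger receptor.

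In 6 of the 8 cases the gene lies on chromosome 5 (mm9 build), in the CXC clusters of that chromosome. Pf4 (91201461 to 91202409) lies 118 kb before Cxcl1 (91320271 to 91322141), which is followed after 10.8 kb by Cxcl2 (91332925 to 91334964). Cxcl9 (92750357 to 92757105) and Cxcl10 (92775667 to 92777880) are 18.6 kb apart, and Cxcl13 stands alone at 96385958 to 96390087. Cxcl14 is on chromosome 13 (56390006 to 56397912) and Cxcl16 on chromosome 11 (70267736 to 70273486).

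The promoters of 3 members are shown: Cxcl1 and Cxcl2, textbook NF-kB targets, and Cxcl10, a target of NF-kB and interferons. Cxcl9 is an interferon target too, but its window held none of the letters marked below and is not printed. The 3 promoters were picked with the RNA levels known, and a link between promoter letters and RNA levels was not tested. Sequences are the 250 bases before the annotated start, from RefSeq (GRCm38.p6), 5′ to 3′ on the gene's strand. Capitals mark matches on either strand to GGG, NNN and TTCC in a row (N being any base), a kB-type motif of NF-kB, and to GAAA, NN and GAAA in a row, a core of the interferon-stimulated response element (ISRE).
Cxcl1, chr5:90890995-90891244, plus strand: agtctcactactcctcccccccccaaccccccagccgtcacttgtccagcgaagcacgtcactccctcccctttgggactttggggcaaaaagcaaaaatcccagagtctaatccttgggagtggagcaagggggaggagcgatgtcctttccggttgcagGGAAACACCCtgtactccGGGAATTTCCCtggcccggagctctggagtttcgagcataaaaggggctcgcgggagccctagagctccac
Cxcl2, chr5:90903649-90903898, plus strand: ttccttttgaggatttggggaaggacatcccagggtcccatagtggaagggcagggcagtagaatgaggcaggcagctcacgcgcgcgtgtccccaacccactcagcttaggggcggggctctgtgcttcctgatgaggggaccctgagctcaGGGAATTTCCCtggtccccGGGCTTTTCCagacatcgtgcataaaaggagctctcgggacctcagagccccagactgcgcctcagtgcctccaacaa
Cxcl10, chr5:92348890-92349139, minus strand: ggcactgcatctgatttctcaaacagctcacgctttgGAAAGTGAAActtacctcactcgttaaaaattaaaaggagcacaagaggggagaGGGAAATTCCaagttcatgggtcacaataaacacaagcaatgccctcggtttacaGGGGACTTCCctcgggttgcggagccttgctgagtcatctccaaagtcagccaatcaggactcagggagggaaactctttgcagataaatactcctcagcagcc
Cxcl1 and Cxcl2 share the run GGGAATTTCCC, in which forward and reverse kB-type matches overlap, starting at base -71 of Cxcl1 and -97 of Cxcl2. Each has a further kB-type match, at -89 in Cxcl1 and -78 in Cxcl2. Cxcl10 has an ISRE-type match at -213 and kB-type matches at -159 and -104. Cxcl14 has an ISRE-type match at -172 and a match to TTCNNNGAA, the GAS letters of interferon-gamma signalling, at -191. Promoters were listed for 7 members, all but Cxcl16, and the windows of Cxcl9, Pf4 and Cxcl13 held none of these letters. Among all 32851 listed promoters, 4.65% held the kB-type letters, 2.98% the ISRE-type and 7.02% the GAS-type. A match is a description of letters and not a measured binding site.

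**Figure D1:**
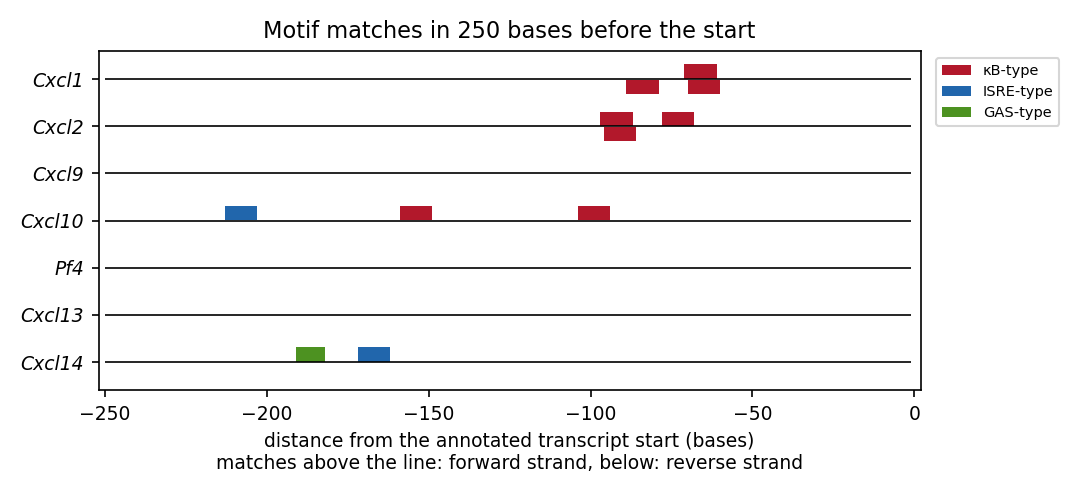
Positions of kB-type, ISRE-type and GAS-type motif matches in the 250 bases before the annotated start of 7 members (x axis, bases from the start; 1 line per gene, bars above the line for the forward strand and below for the reverse). Cxcl1, Cxcl2 and Cxcl10 hold kB-type matches within 160 bases of the start, while no match was found in the windows of Cxcl9, Pf4 and Cxcl13.

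Levels are in FPKM, a fragment count divided by transcript length and library size, so that different genes can be compared. Depth, estimated from the value of a single fragment, was between 21.8 and 24.9 M fragments in macrophages and between 11.7 and 20.5 M in microglia, with the lowest in microglia 1. Microglia 2 held the fewest genes at 1 FPKM or more (5992, against 8165 to 10282 in the other 7 libraries). The labels were matched in part by markers. Sall1, a microglial transcription factor, was listed at 0 in 3 macrophage libraries and at 0.0352 FPKM in macrophage 7, against at least 8.62 FPKM in microglia, while Tmem119, a microglial surface marker, overlapped between the populations (106 to 365 FPKM in macrophages and 179 to 339 FPKM in microglia). Ccr2, the receptor of recruited monocytes, stood at 49.0, 53.0, 2.64 and 99.4 FPKM in macrophages 5 to 8 and at most 1.53 FPKM in microglia. Y-linked RNA split the libraries partly along the comparison: Ddx3y, Eif2s3y, Kdm5d and Uty summed to at most 1.97 FPKM in macrophages and to 25.8, 11.7, 16.5 and 0.0533 FPKM in microglia 1 to 4. A fit with a term for it is given beside the calls of Pf4 and of the pathway genes. Xist, an RNA of female cells, stood at 5.09, 4.84, 7.94 and 7.04 FPKM in macrophages 5 to 8. In microglia 4 it was 4.78 FPKM, and in microglia 1 to 3 at most 0.000779 FPKM. Macrophages and microglia 4 thus had a female pattern, although macrophage 7 also held 1.97 FPKM of Y-linked RNA. Microglia 1 to 3 had a male pattern, so sex was nearly confounded with the comparison. In a bulk library fewer cells of a type and less RNA per cell cannot be told apart.

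Genes were compared with limma on log2(FPKM + 1), and a gene is said to be called when its p, Benjamini-Hochberg adjusted over all 9352 tested genes, is below 0.05. Fold changes are on the log2(FPKM + 1) scale, macrophages minus microglia, with standard errors (SE). Of the 8 members 6 passed the filter of 1 FPKM in at least 4 libraries. Pf4 was called higher in macrophages, 0 members were called lower, and 2 (Pf4 and Cxcl16) had an unadjusted p below 0.05. Over all tested genes 1.65% were called higher, 0.695% lower and 2.34% in either direction, and 15% had an unadjusted p below 0.05. Pf4 and Cxcl16 were also the members whose libraries did not overlap between populations, 2 of 6 tested, against 7.63% of tested genes. The 6 tested members had a median log2 fold change of 0.94, against 0.37 for all tested genes, but 0.57 without microglia 1 and 1.44 without microglia 2, and 5 had a positive fold, against 67.1% of tested genes.

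**Figure D2:**
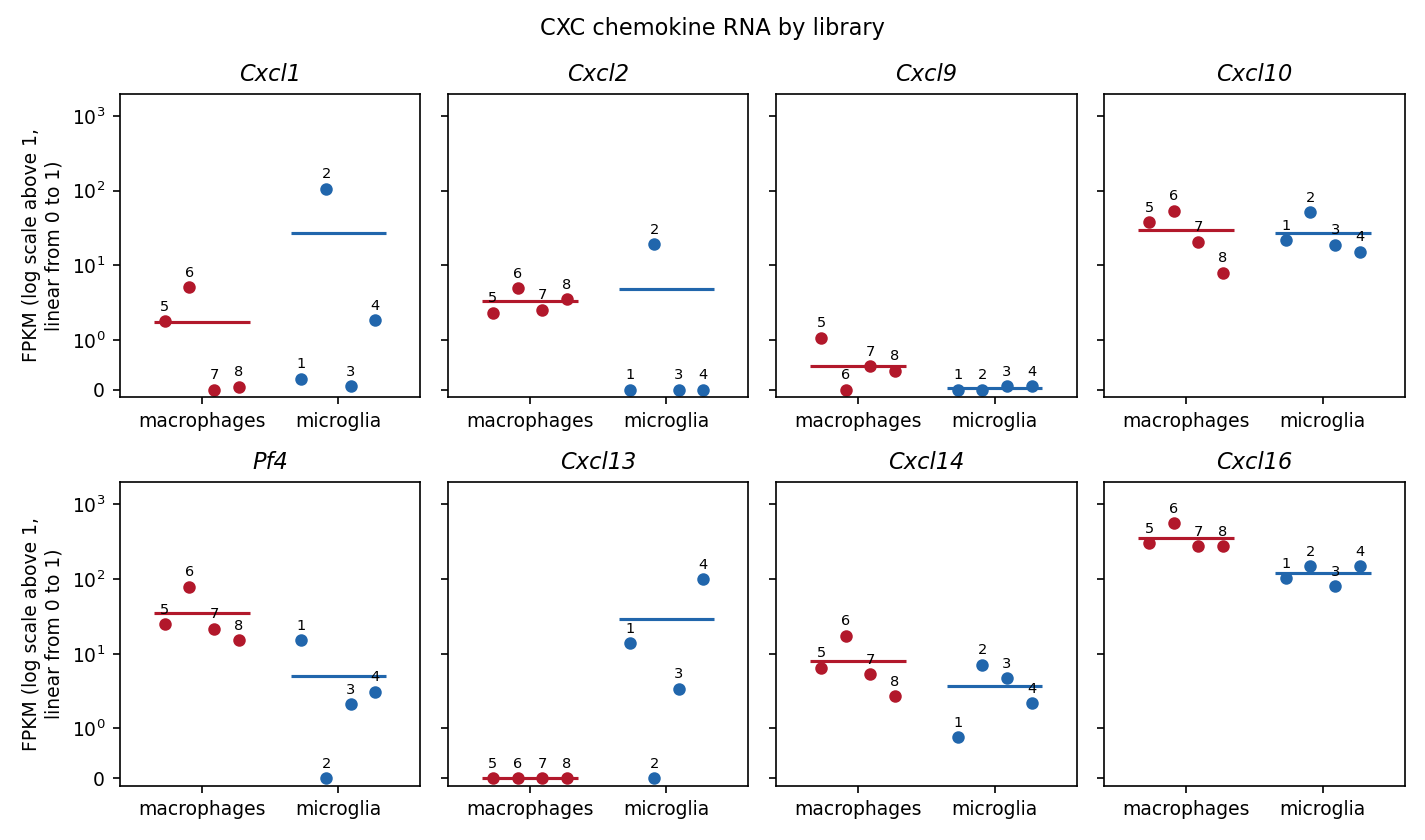
FPKM of the 8 CXC chemokines in each library (y axis linear from 0 to 1 FPKM and logarithmic above), macrophages 5 to 8 in red and microglia 1 to 4 in blue, with the library number above each point and a bar at the group mean. Cxcl16 and Pf4 do not overlap between populations, Cxcl13 is at 0 in all 4 macrophage libraries, and Cxcl1 and Cxcl2 peak in microglia 2.

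Cxcl16 was the most abundant CXC chemokine in every library. It stood at 303, 560.0, 274 and 277 FPKM in macrophages 5 to 8, and at 103, 149.9, 80.8 and 149.1 FPKM in microglia 1 to 4. Each macrophage library was above each microglial library, and macrophage 6 was well above the other macrophages. The mean was 354 ± 138 FPKM in macrophages and 121 ± 34.5 FPKM in microglia (SD, n = 4 each), above 98.9% and 95.8% of tested genes in the same population. The log2 fold change was 1.52 ± 0.46 SE, which missed the threshold (limma, p = 0.00301, adjusted p = 0.0856), while an exact permutation test of this gene alone gave p = 0.0286, two-sided and the smallest that 4 against 4 libraries allow. The call changed with scaling: the adjusted p was 0.00671 with an equal FPKM sum (3.58% of tested genes called in that fit), 0.0218 with upper-quartile scaling (2.93%) and 0.00247 with quantile normalization (3.42%), but 0.0753 with median-of-ratios scaling. Leaving out any single library gave a limma adjusted p between 0.0769 and 0.231, so Cxcl16 was called in 0 of those fits. It was also not called without microglia 2 and 3 (limma, adjusted p = 0.416) or without an intensity trend (0.204). Nor was it called when Y-linked RNA was included, at a fold of 1.17. The fold stayed between 1.17 and 1.74 over all 18 alternative fits.

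The proteases that release Cxcl16 from the cell surface were not called. Adam10, its constitutive sheddase, stood at 16.6, 58.2, 3.22 and 30.6 FPKM in macrophages 5 to 8 and at 31.3, 7.29, 30.3 and 54.9 FPKM in microglia 1 to 4 (limma, adjusted p = 0.824). Adam17, the inducible sheddase, averaged 23.5 ± 9.26 FPKM in macrophages and 18.1 ± 10.5 FPKM in microglia (adjusted p = 0.73). Both overlapped between the populations, and microglia 2 had the lowest Adam17. Cxcr6, the receptor of Cxcl16, was listed at 0 in macrophages 5 and 7 and in all microglia, and stood at 0.902 and 0.127 FPKM in macrophages 6 and 8.

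Pf4 rose in macrophages and was the called member. It stood at 24.8, 78.8, 21.7 and 15.3 FPKM in macrophages 5 to 8, and at 15.1, 0, 2.12 and 3.09 FPKM in microglia 1 to 4. The populations were only just separate at macrophage 8 and microglia 1, while microglia 2 to 4 were all well below any macrophage library. Microglia 2, listed at 0 for Pf4, was the library with the fewest genes at 1 FPKM or more. The mean was 35.1 ± 29.4 FPKM in macrophages and 5.07 ± 6.79 FPKM in microglia (SD, n = 4 each), with a log2 fold change of 2.96 ± 0.77 SE (limma, adjusted p = 0.0374). The call did not survive most changes of processing: without any single library other than microglia 1 the adjusted p lay between 0.0538 and 0.172, without microglia 2 and 3 it was 0.283 (1.75% of tested genes called in that fit), and a fit that also held Y-linked RNA gave 0.517 at a fold of 3.23 (0.267% called). The direction held in each of the 18 alternative fits, at folds from 1.86 to 3.98.

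Platelets are a well-known source of Pf4, and their other transcripts were scarce. The 10 platelet markers summed to between 1.25 and 4.36 FPKM in macrophages and between 0 and 8.01 FPKM in microglia, and the 1 that passed the filter was not called. Ppbp, the platelet chemokine encoded beside Pf4, was listed at 0 in all 4 macrophage libraries and in microglia 2 and 3, and stood at 0.947 and 2.14 FPKM in microglia 1 and 4. Gp9, a subunit of the platelet receptor for von Willebrand factor, was likewise listed at 0 in all macrophages, and stood at 1.37 and 1.73 FPKM in microglia 1 and 4. Macrophage 6, the highest in Pf4, had the lowest platelet sum among macrophages. Microglia 1 and 4, the highest microglia in Pf4, had the highest platelet sums of all libraries (8.01 and 6.25 FPKM). The part of platelets in the level of Pf4 was not tested. Markers of macrophages at tissue borders, which are known to express Pf4, summed to between 25.8 and 59.7 FPKM in macrophages and between 19.5 and 77.6 FPKM in microglia, with 1 of 4 tested members called higher, against 1.65% of all tested genes. That gene, Clec10a, a lectin also found on dendritic cells, was listed at 0 in all microglia and so passed the filter through macrophages alone, and its call was lost when Y-linked RNA was included (limma, adjusted p = 0.513) and without a filter. Stab1, a scavenger receptor, stood between 12.04 and 29.99 FPKM in macrophages and between 12.5 and 15.7 FPKM in microglia, and Mrc1, the mannose receptor, between 1.43 and 7.67 FPKM in macrophages and at or below 0.816 FPKM in microglia. Folr2 and Cbr2 peaked in microglia 2 (38.4 and 24.8 FPKM), and Cd163 and Lyve1 were at or below 0.729 FPKM in each library. The part of border macrophages in the level of Pf4 was not tested.

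**Figure D3:**
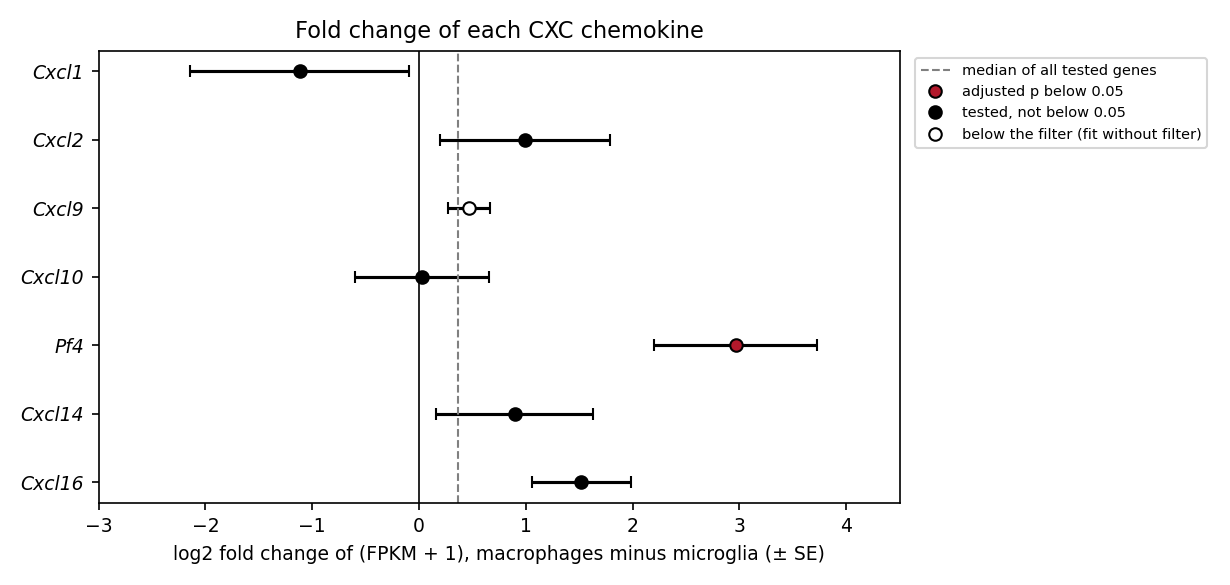
Log2 fold change of FPKM + 1, macrophages minus microglia, with its standard error (x axis) for each CXC chemokine with RNA in both populations (n = 4 libraries each). Pf4 (2.96) is filled in red as the called member, Cxcl16 (1.52) follows, Cxcl9 is an open point because it was below the filter, and the dashed line marks the median of all tested genes (0.37).

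Cxcl1 and Cxcl2, the neutrophil-attracting pair, both peaked in microglia 2. Cxcl1 stood at 1.78, 5.11, 0 and 0.0576 FPKM in macrophages 5 to 8, and at 0.223, 106, 0.0683 and 1.84 FPKM in microglia 1 to 4. All libraries but microglia 2 were at or below 5.11 FPKM. Cxcl2 stood at 2.32, 4.94, 2.54 and 3.54 FPKM in macrophages 5 to 8, and at 19.2 FPKM in microglia 2, with microglia 1, 3 and 4 listed at 0. The macrophages were thus alike in Cxcl2, and the microglia were either at 0 or above every macrophage.

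Neither gene was called. The log2 fold change of Cxcl1 was -1.12 ± 1.02 SE (limma, adjusted p = 0.655), and without microglia 2 it was 0.41 (adjusted p = 0.839), the opposite sign. That of Cxcl2 was 0.99 ± 0.79 SE (adjusted p = 0.591), 0.63 without microglia 1, 3 or 4, and 3.14 with a pseudocount of 0.1. Without microglia 2 the adjusted p of Cxcl2 was 0.0234 (2.46% of tested genes called in that fit), but the remaining microglia were all listed at 0, so that fit set the macrophages against a constant and no fold is given. It was 0.0687 without microglia 2 and 3, and 1 when Y-linked RNA was included. Cxcl2 relative to Cxcl1, as log2 of the ratio of FPKM + 1, was 0.26, -0.04, 1.82 and 2.1 in macrophages 5 to 8 and -0.29, -2.41, -0.10 and -1.51 in microglia 1 to 4. Every macrophage library was above every microglial library in this ratio, and the difference was 2.11 (exact permutation test, two-sided p = 0.0286, the smallest possible, and 0.0571 adjusted over the 2 pairs compared). The separation was narrow, at -0.04 in the lowest macrophage library and -0.10 in microglia 3. There Cxcl2 was listed at 0 and Cxcl1 at 0.0683 FPKM, so the pseudocount largely set that ratio. Cxcl2 was also listed at 0 in microglia 1 and 4. Cxcl1 was listed at 0 in macrophage 7 and stood at 0.0576 FPKM in macrophage 8. The size of the ratio in those libraries thus depended on the pseudocount too, and the difference was 4.69 with a pseudocount of 0.1. With the pseudocount of 1 the difference was 1.67 without microglia 2 (permutation, adjusted p = 0.229) and 1.935 without microglia 2 and 3 (0.267). Its sign held in each of 10 alternatives.

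Microglia 2 was also set apart in other genes. Its expression was flagged as high against the other 3 microglia, by the test used for single outlying samples, in 3.87% of tested genes, against 1.39% to 2.9% for the other microglial libraries. Haemoglobin RNA there was 165 FPKM, close to the 160.1 FPKM of microglia 1, and the neutrophil markers summed to between 56.8 and 248.5 FPKM in macrophages and between 26.2 and 37.5 FPKM in microglia. Of 4 tested neutrophil markers 3 were called higher in macrophages, against 1.65% of all tested genes. These were S100a8 and S100a9, calcium-binding proteins also found in monocytes, and Retnlg (1.06 to 61.3 FPKM in macrophages). All 3 were listed at 0 in all 4 microglial libraries. They so passed the filter through macrophages alone, which allowed a call only as higher. S100a8 and S100a9 stayed called when Y-linked RNA was included (limma, adjusted p = 0.00392 and 0.00796). Csf3r, the receptor of a neutrophil growth factor, stood between 9.07 and 15.2 FPKM in macrophages and between 26.0 and 36.3 FPKM in microglia, and was not called (adjusted p = 0.242). Ngp was at 0 in each library. The part of neutrophils in the macrophage values of Cxcl2 was not tested. The genes whose profiles over the 8 libraries lay nearest to that of Cxcl1, by root-mean-square difference of centred log2 values, were Tmem62 (0.73) and Polr1e (0.92), and those nearest to Cxcl2 were Id3 (0.46) and Zfp472 (0.51).

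Among 18 tested genes that NF-kB induces, 0 were called in either direction, against 2.34% of all tested genes, and 1 was called with equal-sum, upper-quartile or median-of-ratios scaling and without microglia 2 or macrophage 7. An unadjusted p below 0.05 was found for 6, against 15% of all tested genes. The fold of Tnf was negative and those of the other 5 (Il1b, Ptgs2, Nfkb2, Ccrl2 and Birc3) were positive. Ptgs2, which passed the filter through macrophages alone, had the smallest adjusted p (limma, 0.0504, and 0.78 when Y-linked RNA was included). The median log2 fold change of the 18 genes was 0.60, against 0.37 for all tested genes. Nfkbia, the inhibitor that NF-kB itself induces, stood at 52.8, 117, 20.8 and 78.9 FPKM in macrophages 5 to 8 and at 26.6, 128, 43.8 and 63.0 FPKM in microglia 1 to 4. Tnf, an inflammatory cytokine, was also highest in microglia 2 (28.7 FPKM, against at most 11.1 FPKM in the other 7 libraries). Tnfaip3, the NF-kB feedback inhibitor A20, was listed at 0 there and stood between 4.71 and 17.1 FPKM elsewhere. Bcl2a1b, a survival gene and the most abundant member of the list, averaged 203 ± 135 FPKM in macrophages and 138 ± 25.7 FPKM in microglia (adjusted p = 0.779). Zfp36, which destabilises the RNA of Cxcl1 and other chemokines, averaged 84.5 ± 23.3 FPKM in macrophages and 42.6 ± 22.4 FPKM in microglia (adjusted p = 0.329). Of the 7 tested RNA decay genes 0 were called, against 2.34% of all tested genes.

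Cxcl10, the interferon-induced ligand of Cxcr3, was present in every library. It stood at 37.7, 53.9, 20.6 and 8.0 FPKM in macrophages 5 to 8, and at 21.6, 51.6, 18.9 and 15.2 FPKM in microglia 1 to 4. The populations overlapped throughout, with macrophage 6 and microglia 2 the highest and macrophage 8 the lowest. The mean was 30.1 ± 20.0 FPKM in macrophages and 26.8 ± 16.7 FPKM in microglia (SD, n = 4 each), and the log2 fold change was 0.03 ± 0.62 SE (limma, adjusted p = 0.989). Of 18 alternative fits 10 gave a positive fold and 8 a negative, between -0.34 and 0.53. Nearest in profile were Psmb4, a proteasome subunit (root-mean-square difference 0.36), and Dynlrb1, a dynein light chain (0.36).

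Cxcl9, which also binds Cxcr3 and is induced chiefly by interferon-gamma, was low in every library. It stood at 1.07, 0, 0.467 and 0.384 FPKM in macrophages 5 to 8, and at 0.00256, 0.00105, 0.0755 and 0.0692 FPKM in microglia 1 to 4. Macrophages 5, 7 and 8 were above every microglial library, and no library but macrophage 5 reached 1 FPKM. At the estimated depth a single fragment on the longest annotated Cxcl9 transcript would be between 0.0146 and 0.031 FPKM. Macrophage 6, at 0, and microglia 1 and 2, below that range, thus cannot be ranked against each other. Cxcl9 did not pass the filter, and in a fit without a filter its log2 fold change was 0.47 ± 0.20 SE (adjusted p = 0.506, with 0.244% of genes called in either direction). Cxcl9 relative to Cxcl10 differed by 0.44 between macrophages and microglia on the log2 scale (exact permutation test, p = 0.6, and 0.6 adjusted over the 2 pairs), at means of -4.15 ± 1.27 in macrophages and -4.58 ± 0.79 in microglia. Cxcl11, the remaining interferon-induced ligand of Cxcr3, was at or below 1.02 FPKM in each library and below 0.1 FPKM in 6 of 8.

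Of 17 tested genes of interferon-gamma signalling, 2 were called higher in macrophages and 0 lower, against 1.65% and 0.695% of all tested genes. Their median log2 fold change was 0.78, against 0.37 for all tested genes, and without macrophage 6 it was 0.22, against 0.19. Irf1, a transcription factor that interferon-gamma induces, stood at 39.4, 39.6, 29.9 and 30.3 FPKM in macrophages 5 to 8 and at 4.81, 0.0269, 0.757 and 13.5 FPKM in microglia 1 to 4 (limma, adjusted p = 0.0117). Jak2, a kinase of the interferon-gamma receptor, averaged 15.1 ± 10.9 FPKM in macrophages and 1.09 ± 1.24 FPKM in microglia (adjusted p = 0.0354). Neither gene overlapped between the populations, as was so for 7.63% of all tested genes. When Y-linked RNA was included in the fit 0 of these genes were called (adjusted p = 1 for both), nor were any without microglia 2 and 3 (0.158 for Irf1 and 0.16 for Jak2). The call of Irf1 was lost without macrophage 6 (0.0601) and that of Jak2 without macrophage 5, 6 or 8 or microglia 1 or 3 (0.0622 to 0.177). Both were also lost with a pseudocount of 0.1 (0.0946 for Irf1 and 0.106 for Jak2) and without a filter (0.241 for Irf1 and 0.236 for Jak2). Ifng itself, the cytokine made by T and NK cells, was listed at 0 in microglia and in macrophages 6 and 7, and stood at 0.194 and 0.642 FPKM in macrophages 5 and 8. The T and NK cell markers, Ifng among them, summed to between 1.66 and 8.09 FPKM in macrophages and between 0.0347 and 1.64 FPKM in microglia.

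Cxcl13, the ligand of Cxcr5 that draws B cells, was listed at 0 in all 4 macrophage libraries. In microglia 1 to 4 it stood at 13.9, 0, 3.4 and 100.2 FPKM. Microglia 1, 3 and 4 thus held Cxcl13 over a range of more than an order of magnitude. Microglia 2, the library with the fewest genes at 1 FPKM or more, was listed at 0 for Cxcl13 like the macrophages. At the estimated depth a single fragment on its only annotated transcript, of 1174 bases, would be between 0.0393 and 0.0447 FPKM in the macrophage libraries. Cxcl13 failed the filter, and the fit without a filter did not call it (limma, adjusted p = 0.49). No fold is given, because all 4 macrophage libraries were listed at 0. In microglia 4 it was the next most abundant member after Cxcl16 and made up 36.9% of the summed FPKM of the 8 genes. Cxcr5 was at or below 0.713 FPKM in each library, and of the B cell markers Cd79b alone passed the filter (3.36 to 13.9 FPKM in macrophages and 0 to 34.8 FPKM in microglia, highest, like Cxcl13, in microglia 4). The part of B cells in the level of Cxcl13 was not tested.

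Cxcl14 was low in both populations. It stood at 6.49, 17.5, 5.28 and 2.7 FPKM in macrophages 5 to 8, and at 0.819, 7.16, 4.72 and 2.18 FPKM in microglia 1 to 4. The populations overlapped, again with macrophage 6 and microglia 2 highest in their groups. Its mean was 8.0 ± 6.55 FPKM in macrophages and 3.72 ± 2.81 FPKM in microglia (SD, n = 4 each), a log2 fold change of 0.90 ± 0.73 SE (limma, adjusted p = 0.603). The fold was positive in each of 18 alternative fits (0.46 to 1.65) and called in 0 of them. The nearest profiles were those of Oas1g, a type I interferon-induced gene (root-mean-square difference 0.33), and Fpgs, an enzyme of folate metabolism (0.35).

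**Figure D4:**
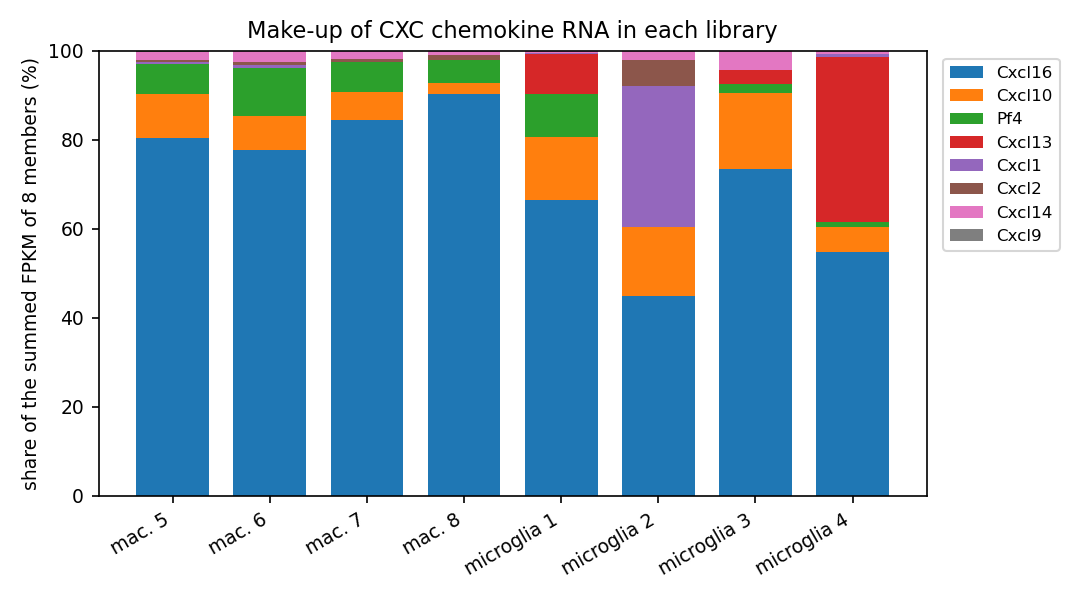
Share of each CXC chemokine in the summed FPKM of the 8 genes (y axis, percent) in macrophages 5 to 8 (left) and microglia 1 to 4 (right). Cxcl16 makes up 77.8% to 90.2% in macrophages and 44.9% to 73.4% in microglia, where Cxcl1 fills 31.8% in microglia 2 and Cxcl13 36.9% in microglia 4.

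Summed over the 8 genes, CXC chemokine RNA came to 432 ± 194 FPKM in macrophages and 218 ± 103 FPKM in microglia (SD, n = 4 each), with the lowest macrophage library (307 FPKM) below the highest microglial library (334 FPKM). Its make-up was more even among macrophages. Cxcl16 made up 80.4%, 77.8%, 84.4% and 90.2% of the sum in macrophages 5 to 8, and 66.6%, 44.9%, 73.4% and 54.9% in microglia 1 to 4. Cxcl10 and Pf4 followed Cxcl16 in each macrophage library, in either order. The next place in microglia went to Cxcl10 in microglia 1 and 3, to Cxcl1 in microglia 2 and to Cxcl13 in microglia 4. Levels of Cxcl10 and Pf4 in macrophages differed by less than their spread between libraries (30.1 ± 20.0 and 35.1 ± 29.4 FPKM), as did those of Cxcl1, Cxcl10 and Cxcl13 in microglia (27.1 ± 52.8, 26.8 ± 16.7 and 29.4 ± 47.6 FPKM).

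The nearest profile to that of Cxcl16 belonged to Slfn3, a Schlafen family gene (root-mean-square difference 0.18), followed by Cdkn2d, an inhibitor of cyclin-dependent kinases (0.24). For Pf4 they were Ifi44, an interferon-induced gene (0.56), and Cenpt, a centromere protein (0.64). None of these 4 genes was called (adjusted p between 0.0637 and 0.204).

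The other CXC ligands were sparse, and 0 of them passed the filter. Cxcl3, a further ligand of Cxcr2, was listed at 0 in all microglia and stood between 0.0554 and 0.505 FPKM in macrophages. Cxcl17, a mucosal chemokine, was listed at 0 in all microglia and in macrophage 6, and stood at 1.05, 2.47 and 0.617 FPKM in macrophages 5, 7 and 8. Cxcl5 and Cxcl15 stayed below 0.1 FPKM in each library, and Cxcl12, the ligand of Cxcr4, was at or below 0.162 FPKM.

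The receptors of these ligands were also low. Of 8 receptor genes listed 2 were tested, Cxcr4 and Darc, and 0 were called, against 2.34% of all tested genes. Cxcr4 stood at 3.05, 1.42, 3.86 and 2.14 FPKM in macrophages 5 to 8 and at 0.155, 0, 1.23 and 0.228 FPKM in microglia 1 to 4 (limma, adjusted p = 0.181). Its populations did not overlap, as was so for 7.63% of all tested genes, with macrophage 6 closest to microglia 3. Darc, a chemokine-binding receptor of red cells and venules that does not signal, stood at 1.26, 0, 1.62 and 1.22 FPKM in macrophages 5 to 8 and at 0, 0, 13.4 and 0.432 FPKM in microglia 1 to 4 (adjusted p = 0.941). Its peak was in microglia 3, the library in which haemoglobin RNA was highest, at 2435 FPKM. Cxcr2 stood between 0.0831 and 0.237 FPKM in 7 libraries and at 1.44 FPKM in macrophage 8. Cxcr3 was listed at 0 in microglia and in macrophages 6 and 7, and stood at 0.472 and 2.33 FPKM in macrophages 5 and 8.

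Among genes that process chemokines, 1 of 5 tested was called higher and 0 lower, against 1.65% and 0.695% of all tested genes. Mmp14, a membrane metalloproteinase, stood at 64.8, 89.8, 18.5 and 57.4 FPKM in macrophages 5 to 8 and at 20.2, 4.25, 1.81 and 8.49 FPKM in microglia 1 to 4. The populations overlapped, since macrophage 7 was below microglia 1. Its log2 fold change was 2.79 (limma, adjusted p = 0.0222), and the call was lost without microglia 3 or macrophage 5, 6 or 8 (0.0773 to 0.0943), without microglia 2 and 3 (0.255) and when Y-linked RNA was included (0.841, at a fold of 2.39). It was also lost with a pseudocount of 0.1 (0.0784) and without a filter (0.299). Dpp4, the peptidase that trims and inactivates Cxcl9 and Cxcl10, stood at 2.75, 6.97, 0.146 and 11.2 FPKM in macrophages 5 to 8 and at or below 0.52 FPKM in microglia, and did not pass the filter.

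**Figure D5:**
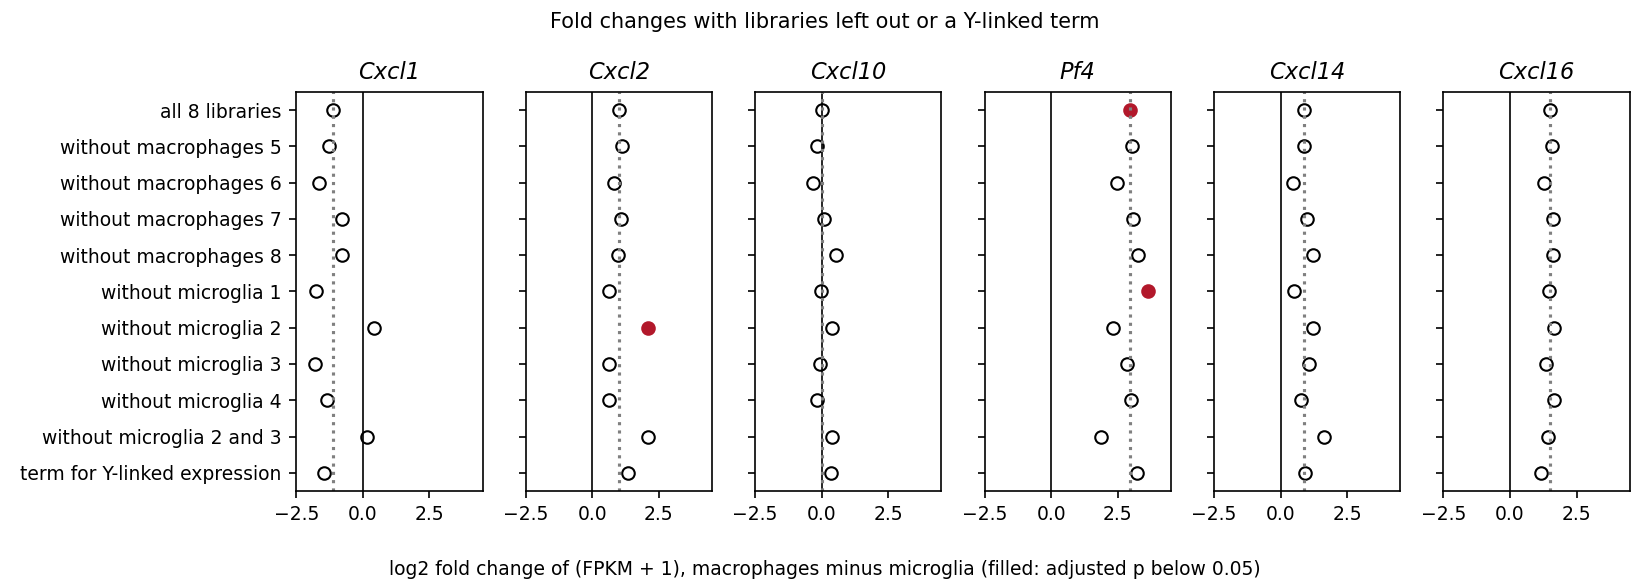
Log2 fold change of FPKM + 1, macrophages minus microglia (x axis), of the 6 tested members with all 8 libraries, with libraries left out and with a term for Y-linked expression (rows). Filled points have an adjusted p below 0.05, and the dotted line marks the fold with all libraries. Pf4 is filled with all libraries and without microglia 1, Cxcl2 without microglia 2 (the remaining microglia being at 0), and the fold of Cxcl1 changes sign without microglia 2.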

How the data were processed

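The material was RNA of infiltrating macrophages and microglia in 8 libraries. The submitters' processing notes name bcl2fastq 1.8.4, Cufflinks 2.1.1 and the mm9 build; the aligner is not given in the sources used here. The authors deposited FPKM per gene, per the file headers, with intervals that were left aside because 927 to 1960 rows a library fall outside their own. Since FPKM hold no read numbers, count models were not applied. Rows of 1 symbol were added up, and 9 symbols with a failed estimate, 0 of them members, were dropped. No 2 libraries were identical. The test was limma 3.58.1 (R 4.3.3) on log2(FPKM + 1), a scale that understates changes of low genes. It used an intensity trend and Benjamini-Hochberg adjustment, over genes reaching 1 FPKM in 4 or more libraries. The same fit was also run on simulated data with normally distributed residuals. Pairs of members were compared by exact permutation of the libraries. Depth was estimated from genes with a single GENCODE transcript of 800 bases or more, taking the most frequent low value as 1 fragment and assuming fragments of 150 bases. Tables were made with Python 3.11.15, pandas 2.3.3 and numpy 2.4.6. Members, 8 pathway lists, 14 marker lists and all alternatives were chosen with earlier results of these data known. Named by rule were, in each pathway list, up to 3 called genes or else the most abundant tested gene, and for each tested member the 2 genes of at least 5 FPKM with the nearest profile; other genes were named after their values were seen.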

Additional observations from a re-analysis of the deposited data

Results flagged for a closer look

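In 5 of 15 groups of 4 libraries with any spread, a library lay far from the others; chance flags about 1 group in 20, but over all tested genes 7.89% were flagged among macrophages and 11.9% among microglia. Among macrophages, macrophage 6 was high in Cxcl16 (560.0 FPKM, against 274 to 303 in the other macrophages) and in Pf4 (78.8 FPKM, against 15.3 to 24.8). Macrophage 6 was flagged as high in 5.7% of all tested genes, against 0.246% to 0.332% for the other macrophage libraries, and its FPKM sum was the highest. Among microglia, microglia 2 was high in Cxcl1 (106 FPKM, against 0.0683 to 1.84 in the other microglia) and in Cxcl2 (19.2 FPKM, the other microglia being listed at 0). Microglia 4 was high in Cxcl13 (100.2 FPKM, against 0 to 13.9 in the other microglia).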

How the results depend on the processing

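No paired analysis was possible because the labels number microglia 1 to 4 and macrophages 5 to 8, so no number is shared. Of all tested genes 219 were called (154 higher), against 136 with a pseudocount of 0.1, 50 without a filter, 132 with a filter at 5 FPKM and 25 with the Y-linked term. Scaling gave 335 (243 higher) with an equal sum, 274 (163) with the upper quartile, 246 (136) with median of ratios and 320 (171) with quantiles. Leaving out single libraries gave 119 (without macrophage 8) to 258, with 122 without macrophage 5. Of the members 1 was called (Pf4), against 0 with a pseudocount of 0.1, without a filter, with median-of-ratios scaling, without an intensity trend, without microglia 2 and 3 and with the Y-linked term, 2 with equal-sum and quantile scaling, and 0 to 1 without single libraries. With upper-quartile scaling the called member was Cxcl16 (limma, adjusted p of Pf4 0.0513), and without microglia 2 it was Cxcl2 (0.0668 for Pf4). The adjusted p of Pf4 was 0.0571 with median-of-ratios scaling and 0.0527 without an intensity trend. The fold of Cxcl1 reversed to 0.41 without microglia 2 and 0.14 without microglia 2 and 3, and ran from -1.81 to 0.41 without single libraries. The fold of Cxcl10 reversed to -0.078 (upper quartile), -0.23 (median of ratios) and -0.062 (quantiles), and ran from -0.34 to 0.53 without single libraries. Cxcl9 relative to Cxcl10 ran from -0.044 (without macrophage 8) to 0.98 without single libraries and was 1.66 with a pseudocount of 0.1. The cause was not tested. The median fold of all genes was 0.37, and 0.48, 0.27, 0.17 and -0.03 under those 4 scalings; relative to it Pf4 lay between 2.58 and 2.71 and Cxcl16 between 1.09 and 1.77. A single fragment on the longest transcript would be between 0.0146 FPKM (Cxcl9) and 0.196 FPKM (Pf4). Values of members near or below that of a single fragment are limited by depth.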
